A study of Homo sapiens with 16 samples.

Results

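HeyA8 cells, an established human ovarian cancer line, received either of 2 cytotoxic siRNAs, siCAG or siGGGGGC, and their RNA was sequenced. The comparison sets these siRNAs against each other directly. It takes 4 of the 16 libraries of the series, chosen by cell line and siRNA name, namely siCAG at 24 and 48 h and siGGGGGC at 24 and 48 h. siGGGGGC carries the name siMxy in the headers of the count table. All cells were labelled wild type and, per the labels, were transfected with 1 nM siRNA by a lipid reagent, and total RNA was taken at the named time. The study's text gives a higher dose for such transfections, so the dose is uncertain. HeyA8 libraries of the non-targeting siRNA siNT1 and of mock-treated cells, and the same siRNAs in PC3 prostate cancer cells, served only for reference. Each siRNA has 1 library per time point, so the 24 h and the 48 h library are its 2 replicates. The labels do not say whether they came from separate cultures. The study's text describes some wells lysed at 24 h and the remaining wells at 48 h. The p-values therefore measure only the spread between these libraries.

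A short RNA loaded into an Argonaute protein finds mRNAs by base pairing, and an miRNA does so mainly through its seed, at positions 2 to 7 of the guide strand. siRNAs with a G-rich seed lower many mRNAs that carry the complementary letters in the 3′ UTR, and cells can die when genes needed for survival are among them. An siRNA made of a triplet repeat can pair along its whole length with mRNAs that hold the complementary repeat. The letters complementary to GGGGGC are GCCCCC, and those complementary to CAG are CTG. siCAG is known here by its name alone.

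The siRNA guides are not printed here, so 2 human miRNAs of RefSeq (GRCh38.p14, plus strand) that share the seed of siGGGGGC show it, with positions 2 to 7 in capitals. They are hsa-miR-4488 at chr11:61508599-61508616 and hsa-miR-1237-5p at chr11:64368651-64368671.
hsa-miR-4488: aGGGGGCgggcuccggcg
hsa-miR-1237-5p: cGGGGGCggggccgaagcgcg

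The sequences complementary to either name were read from GENCODE v44 transcripts on hg38 in windows of 30 bases. The first 5 windows hold the longest CTG run, in capitals, of transcripts that will be followed below. They lie at chr3:40462030-40462059 (plus strand, coding sequence of RPL14), chr10:96586761-96586790 (minus strand, coding sequence of TM9SF3), chr17:50383141-50383170 (minus strand, coding sequence of LRRC59), chr20:45891596-45891625 (plus strand, coding sequence of CTSA) and chr19:45770235-45770264 (minus strand, 3′ UTR of DMPK). The last 2 windows hold a GCCCCC, in capitals, of the 3′ UTRs of HMGA1 (chr6:34244948-34244977, plus strand) and PES1 (chr22:30576751-30576780, minus strand). The runs of RPL14 and DMPK are 10 and 20 triplets long, and the window shows 10 triplets of each.
RPL14: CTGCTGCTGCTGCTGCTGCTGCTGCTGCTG
TM9SF3: ctgtggCTGCTGCTGCTGCTGCTGccccgg
LRRC59: ctgaagCTGCTGCTGCTGCTGCTGctattt
CTSA: ttcCTGCTGCTGCTGCTGCTGCTGCTGcta
DMPK: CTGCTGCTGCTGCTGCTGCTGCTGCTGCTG
HMGA1: tccgctcccaccGCCCCCaccccttcccca
PES1: gaggcccacccaGCCCCCtacctactgccc

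The siCAG libraries held 31016029 counted reads at 24 h and 30360281 at 48 h, and the siGGGGGC libraries 31255897 and 30570998. HeyA8 cells of all 8 libraries expressed genes of Müllerian epithelium and of mesenchyme. PAX8, a transcription factor of that epithelium, had 1838 to 6680 reads per library, KRT8 8438 to 29072 and the mesenchymal filament gene VIM 124593 to 222814. ESR1 had 0 reads in every library, CDH1 at most 3 and MUC16 at most 5, so these ovarian and epithelial markers were at or near 0. The prostate markers KLK3, FOLH1 and TMPRSS2 had 0 reads in all 8 libraries, and HOXB13 had 10 to 71. The 5 blood cell markers summed to 1 to 19 reads. Of the 4 endothelial markers, summing to 117 to 361 reads, CDH5 was the most abundant, with 99 to 270.

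Both siCAG libraries stood apart from all others, and from each other. Across the tested genes, the Pearson correlation of log2 read counts between the siCAG libraries at 24 and 48 h was 0.918, against 0.973 between the siGGGGGC libraries and 0.988 between the siNT1 libraries. With the mock and siNT1 libraries, the siCAG library correlated at 0.922 to 0.929 at 24 h and at 0.896 to 0.898 at 48 h. The siGGGGGC library correlated with them at 0.982 to 0.988 at 24 h and at 0.955 to 0.959 at 48 h. The translation elongation factor gene EEF1A1 took 1.97% and 2.02% of the reads of the siCAG libraries, and 1.05% of those of the siGGGGGC library at 24 h.

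The siCAG library at 24 h also differed by base composition. Relative to the mean of the mock and siNT1 libraries, its median log2 level was -0.83 over the 4076 genes in the lowest tercile of 3′ UTR GC content and 0.47 over the 4076 genes in the highest tercile. At 48 h these medians were -0.01 and -0.03 after siCAG, and after siGGGGGC they were 0.03 and -0.07 at 24 h and 0.05 and -0.10 at 48 h. Its part in the differences fitted over both times was tested only through GC offsets, chosen after seeing the data.

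With time as a block, 13560 genes were tested on the 4 libraries by edgeR's quasi-likelihood test with Benjamini-Hochberg adjustment, and a gene is called here at an adjusted p below 0.05. After siCAG, 240 genes were lower (1.77% of those tested) and 85 were higher (0.627%) than after siGGGGGC. In the fit of all 8 HeyA8 libraries, whose spread rests on 3 residual degrees of freedom in place of 1, 1072 of 13872 genes were lower (7.73%) and 1060 higher (7.64%). All 325 called genes had the same direction at 24 and at 48 h, as did 67.1% of all tested genes, and a fit with time as a block favours such genes. Of the 325, 222 differed more at 48 h. The smallest called difference was 1.44 on the log2 scale, and the median differences of the lower genes were -2.89 at 24 h and -3.42 at 48 h. In 324 of the 325 the values of the siRNAs did not overlap, as in 26.4% of all tested genes with siCAG below and 28% with siCAG above.

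The siNT1 libraries show on which side a called difference lay, although both siRNAs are then read against the same siNT1 libraries. For 238 of the 240 genes lower after siCAG, the siCAG level lay farther from siNT1 than the siGGGGGC level did. Their median log2 difference from siNT1 was -2.90 after siCAG and 0.20 after siGGGGGC. The 85 genes higher after siCAG were mixed, with siCAG farther from siNT1 for 44 and siGGGGGC farther for 41, and with medians of 1.40 after siCAG and -1.46 after siGGGGGC. Against siNT1, edgeR's quasi-likelihood test on the 8 libraries called 399 genes higher (2.88%) and 684 lower (4.93%) after siCAG. After siGGGGGC it called 0 in each direction, with 1352 genes at an unadjusted p below 0.05.

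**Figure D1:**
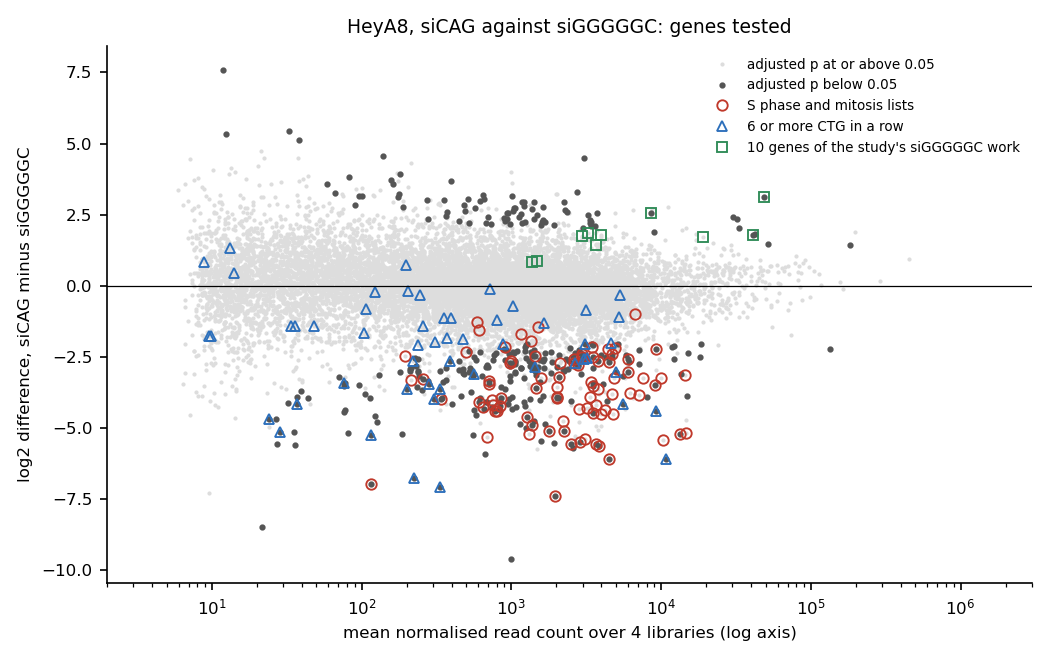
Log2 difference of siCAG minus siGGGGGC in HeyA8 cells (vertical axis) against the mean normalised read count over the 4 libraries (horizontal log axis), 1 point per tested gene. Dark points are the 325 called genes, red circles the S phase and mitosis lists, blue triangles genes with runs of 6 or more CTG and green squares 10 genes of the study's siGGGGGC work. The circles all lie below 0 and the squares all above it.

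Cell division genes were among the lower genes. DNA replication genes build the replication fork and the nucleotides it uses, and mitosis genes assemble the spindle and drive chromosome separation. Both sets are switched on by E2F and related factors in cycling cells. Of the 44 genes of the DNA replication and S phase list, 27 were lower after siCAG, beside 1.77% of all genes tested, and 0 higher, and the other 17 did not pass. The median log2 difference was -3.12, against -0.04 over all tested genes. All 44 had both siCAG values below both siGGGGGC values, as did 26.4% of all genes. Of the 40 genes of the mitosis list, 12 were lower, 0 were higher and 28 did not pass, with a median of -4.07. In the 8-library fit the medians of the S phase and mitosis lists were -2.76 and -2.81. Without time as a block they were -2.68 and -2.54. In bulk RNA, fewer cells in a phase of the cycle and less RNA per cell cannot be told apart.

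In a single time point, 19.8% of all tested genes at 24 h and 15.2% at 48 h were more than 2-fold lower after siCAG, values with 1 library a side and no test. In the mitosis list the median difference was -1.74 at 24 h and -6.31 at 48 h, while in the S phase list it was -2.26 and -4.07. CDK1, the kinase that drives entry into mitosis (chr10:60778331-60794852 on hg38), had 656 and 30.8 normalised reads after siCAG at 24 and 48 h, and 7417 and 6666 after siGGGGGC. The siRNAs did not overlap, and CDK1 differed by -5.55 ± 1.06 on the log2 scale (SE, n = 2 libraries a side), with an adjusted p of 0.0386 by edgeR's quasi-likelihood test. TOP2A, which untangles DNA, was the most abundant gene of the mitosis list and had 4339 and 125 reads after siCAG against 25598 and 28559 after siGGGGGC. With values so far apart between the time points of siCAG, its difference of -5.18 ± 1.28 had an adjusted p of 0.0747.

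TTK and CENPE varied less between the time points. TTK, a spindle checkpoint kinase, had 236 and 66.5 reads after siCAG and 4509 and 4206 after siGGGGGC, a difference of -5.12 ± 0.60 (adjusted p = 0.0144, edgeR). CENPE, a kinetochore motor, had 316 and 180 against 4814 and 2779, and differed by -3.95 ± 0.45 with nearly the same value at 24 h (-3.93) and 48 h (-3.95). ASPM, a spindle pole gene, differed by -5.64, ANLN, which builds the cleavage furrow, by -5.21, and KIF11, a spindle motor, by -4.47. DEPDC1 differed by -6.09 and HMMR by -5.57, and all 5 passed. Each of these 5 differed more at 48 h, HMMR from -3.40 to -7.98 and KIF11 from -3.29 to -5.65.

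Genes that start DNA replication fell in the same libraries. CCNE2, a cyclin of the G1 to S transition, had 13.7 and 36.7 normalised reads after siCAG and 3854 and 3880 after siGGGGGC. No siCAG value came near a siGGGGGC value. The difference of -7.39 ± 0.62 (adjusted p = 0.00725, edgeR's quasi-likelihood test) was the most negative among called genes with a mean of at least 1000 reads. The siNT1 libraries held 2068 and 917 reads and mock cells 3660 and 2027. CDC6, which loads the replicative helicase, had 374 and 37.7 reads after siCAG against 6433 and 4707. CDC25A, the phosphatase that activates CDK2 and a gene outside the lists, had 225 and 26.8 against 4123 and 3306. Both fell, by 5.49 and by 5.51 on the log2 scale.

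MCM4, a subunit of that helicase, had 2776 and 769 reads after siCAG and 18955 and 14072 after siGGGGGC, and fell by 3.50 ± 0.49 (adjusted p = 0.0223, edgeR). RFC3, a subunit of the clamp loader, fell by 3.59 ± 0.46. The transcription factor gene E2F2 had 3.93 and 0 reads after siCAG and 333 and 124 after siGGGGGC, and differed by -6.96 ± 0.86. RRM2, the ribonucleotide reductase subunit, was the most abundant gene of the S phase list and did not pass (adjusted p = 0.123), with 4366 reads at 24 h and 36.7 at 48 h after siCAG. FAM111B, a protease gene outside the lists, had the smallest p-value of all, with 2.95 and 1.99 reads after siCAG against 2430 and 1546 (-9.60 ± 0.65, adjusted p = 0.00382).

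The numbers of called genes in these lists depended on the libraries in the fit. Without the term for time, 2 S phase and 3 mitosis genes were lower. In the 8-library fit 36 and 12 were, beside 7.73% of all genes. In fits of 7 HeyA8 libraries, fewer genes of both lists were lower when either siGGGGGC library was left out. More were lower when either siCAG library was left out. The number of lower genes among all genes tested moved in the same directions. With 1 library left out, the median ranged from -4.12 to -2.19 for the S phase list and from -6.39 to -1.76 for the mitosis list. With offsets for 3′ UTR GC content, chosen after seeing the data, 14 and 1 were called, while the medians of the lists were -2.85 and -3.73. No fit called a gene of either list higher.

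**Figure D2:**
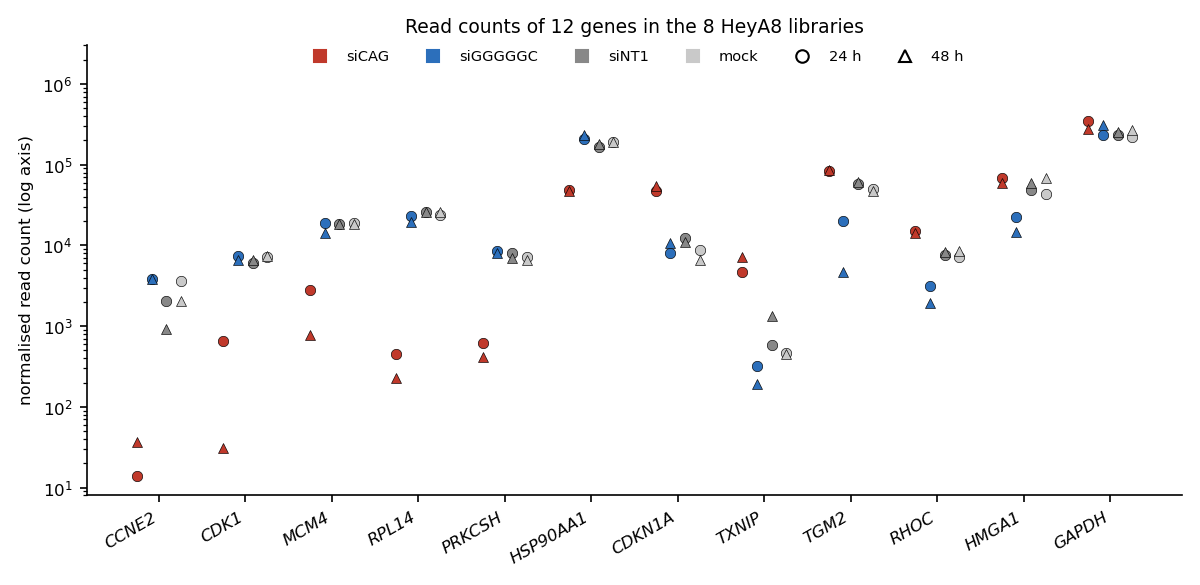
Normalised read counts (vertical log axis) of 12 genes in the 8 HeyA8 libraries, with colour for the treatment, circles for 24 h and triangles for 48 h. For CCNE2, CDK1, MCM4, RPL14, PRKCSH and HSP90AA1 the red siCAG points lie below every other library. For CDKN1A and TXNIP they lie above every other library, and for TGM2, RHOC and HMGA1 the blue siGGGGGC points are the lowest.

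The genes around the G1 checkpoint were split. CDKN1A, the p21 inhibitor of cyclin-dependent kinases and a p53 target (chr6:36676460-36687339), had 47203 and 54134 reads after siCAG and 8025 and 10850 after siGGGGGC. The siNT1 libraries had 12358 and 11096, so siCAG stood above and siGGGGGC near the controls. Its difference was 2.42 ± 0.33 (adjusted p = 0.0206, edgeR's quasi-likelihood test). GDF15, a secreted stress cytokine and p53 target, had 618 and 860 against 55.3 and 56.5, and rose by 3.69 ± 0.51. These were the 2 of 25 tested p53 target genes that were higher, with 0 lower and 23 that did not pass, and the median of the list was 0.57. Of all genes tested, 0.627% were higher, and 7.64% were in the 8-library fit. The 8-library fit called 6 of the 25 higher. The calls of CDKN1A and GDF15 were lost without siGGGGGC at 48 h. The median of the list ranged from 0.50 to 0.81 with 1 library left out. BBC3, which encodes the cell death protein PUMA, differed by 2.24 ± 0.49 and did not pass (adjusted p = 0.0541).

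In the list of CDK inhibitors and G1 cyclins, 1 of 13 tested genes was higher, CDKN1A, and 2 were lower, with a median of -0.84, beside 0.627% and 1.77% of all genes. Higher and lower genes of the list numbered 1 and 0 without the term for time, beside 11 and 57 of all 13560 genes. Without siGGGGGC at 48 h the call of CDKN1A was lost and fewer genes of the list were lower. The median of the list ranged from -1.04 to -0.70 with 1 library left out. RBL1, the p107 pocket protein, differed by -3.17 ± 0.45, with 246 and 152 reads against 2142 and 1396. CCND3, cyclin D3, had 425 and 200 against 1971 and 3291, a difference of -3.14 ± 0.57. CCND1, the most abundant gene of the list, had 26335 and 31792 against 52596 and 42260 and did not pass (-0.72 ± 0.32, adjusted p = 0.245).

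Core histone genes were measured only in part, and 18 of the 53 on the list were tested. HIST1H2AC had 607 and 1241 reads after siCAG and 94.1 and 114 after siGGGGGC, and HIST2H2BE had 345 and 913 against 38.8 and 118. Both were higher, by 3.05 and 3.03 on the log2 scale, and 16 did not pass, while 0.627% of all genes were higher. Both calls were lost without the term for time and without either siGGGGGC library in turn. The median of the list was 1.05 and ranged from 0.44 to 1.46 with 1 library left out. All genes of the histone clusters together held 0.00984% and 0.0185% of the reads after siCAG, and 0.00584% and 0.008% after siGGGGGC.

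The second class of lower genes held CTG runs. The longest run of CTG was searched as the letters CTG repeated without a gap, on the transcript strand, in the coding sequence and 3′ UTR of the transcript with the longest 3′ UTR, for the 12234 tested genes that matched GENCODE. Runs of 6 or more CTG occurred in 53 of them (0.433%). Their median log2 difference was -1.98, against -0.07 over the 12181 other genes, and it was -1.96 at 24 h and -2.15 at 48 h. Of the 53, 22 were lower (41.5%, against 1.77% of all genes tested) and 0 higher. With 5 CTG the median was -0.81 over 55 genes, with 4 it was -0.33 over 222 genes, and with 3 it was 0.06 over 1666 genes.

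The lowering lay in the siCAG libraries. Against the mean of mock and siNT1, the 53 genes had a median log2 level of -1.91 and -2.23 in the siCAG libraries at 24 and 48 h, and of 0.00 and -0.04 in the siGGGGGC libraries. The 47 genes with such a run in the coding sequence had a median difference of -2.03 and the 6 with one in the 3′ UTR of -0.52. In the 8 genes with a run of at least 6 only in the 5′ UTR, the median was -1.52. Runs of other triplets served for comparison. The 112 genes with 6 or more CAG in a row had a median of 0.16, and the 55 with 6 or more GCC in a row of -0.02.

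RPL14, a protein of the large ribosomal subunit whose run is printed above, stood out among the abundant genes. It had 447 and 227 normalised reads after siCAG and 23063 and 19652 after siGGGGGC, with 25859 and 25946 after siNT1. The siGGGGGC libraries lay near siNT1 and the siCAG libraries far below, and the difference was -6.07 ± 0.47 (adjusted p = 0.00598, edgeR's quasi-likelihood test). It was the only called gene among 78 cytosolic ribosomal proteins in the 4-library fit, beside 1.77% of all genes lower. In the 8-library fit 9 others were higher, beside 7.64% of all genes. The median over all 78 ranged from 0.39 to 0.71 with 1 library left out. The other 77 had a median difference of 0.52, and 70 of them had both siCAG values above both siGGGGGC values (28% of all genes did). RPL7, the most abundant, had 94386 and 104683 reads against 74726 and 69664 and did not pass (0.45 ± 0.27, adjusted p = 0.383).

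Of the 6 most abundant genes with runs of 6 or more, 4 were lower, RPL14 among them. TM9SF3, a membrane protein of the secretory pathway, had 474 and 1465 reads after siCAG and 16123 and 18875 after siGGGGGC (-4.40 ± 0.52). LRRC59, which sits in the endoplasmic reticulum, had 858 and 404 against 12499 and 8594 (-4.15 ± 0.45). MLEC, an endoplasmic reticulum lectin, had 1316 and 939 against 9268 and 8636 (-3.02 ± 0.43). RGMB, a BMP co-receptor, and GAS6, a ligand of AXL, carry a run of 6 as well, and their differences of -0.30 ± 0.47 and -1.11 ± 0.40 did not pass.

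The run length alone did not order the genes. DMPK, with 20 CTG in the 3′ UTR, the longest of all, differed by -0.13, and CASK, with 16, by -0.33, and neither passed. APLN, with only 7 in the 3′ UTR, was lower, at -7.06 (adjusted p = 0.0179, edgeR). It was the 1 called gene of the 6 with a run of at least 6 CTG in the 3′ UTR. LRP8, a lipoprotein receptor gene with 11 in the coding sequence, was lower, at -2.54 ± 0.46. CTSA, a lysosomal carboxypeptidase with a run of 8, had 762 and 683 reads against 4705 and 4549 (-2.70 ± 0.43, adjusted p = 0.0303, edgeR). DMPK, CASK, APLN and LRP8 were chosen after their values were seen.

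Shorter runs also occurred among the lower genes of the secretory pathway. PRKCSH, the beta subunit of glucosidase II, which trims sugars of new glycoproteins (chr19:11435257-11450967), has a run of 4. It had 614 and 414 reads after siCAG and 8452 and 8031 after siGGGGGC, a difference of -4.04 ± 0.46 (adjusted p = 0.0144). NUCB1, a Golgi calcium-binding protein with a run of 4, was lower as well (-3.33 ± 0.46). They were the 2 lower genes of 18 in the list of endoplasmic reticulum glycan processing and folding, with 0 higher and a median of -0.16, beside 1.77% of all genes lower. The 8-library fit called 5 lower, beside 7.73% of all genes. With each siRNA library left out in turn, the median of the list ranged from -0.40 to 0.16. Of the 240 lower genes, 40 had at least 4 CTG in a row, 39 belonged to the S phase and mitosis lists, 0 to both and 161 to neither. Runs of at least 4 CTG occurred in 330 of all 12234 matched genes (2.70%) and in 40 of the 237 matched lower genes (16.9%), and the lists hold 84 of the 13560 genes tested.

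**Figure D3:**
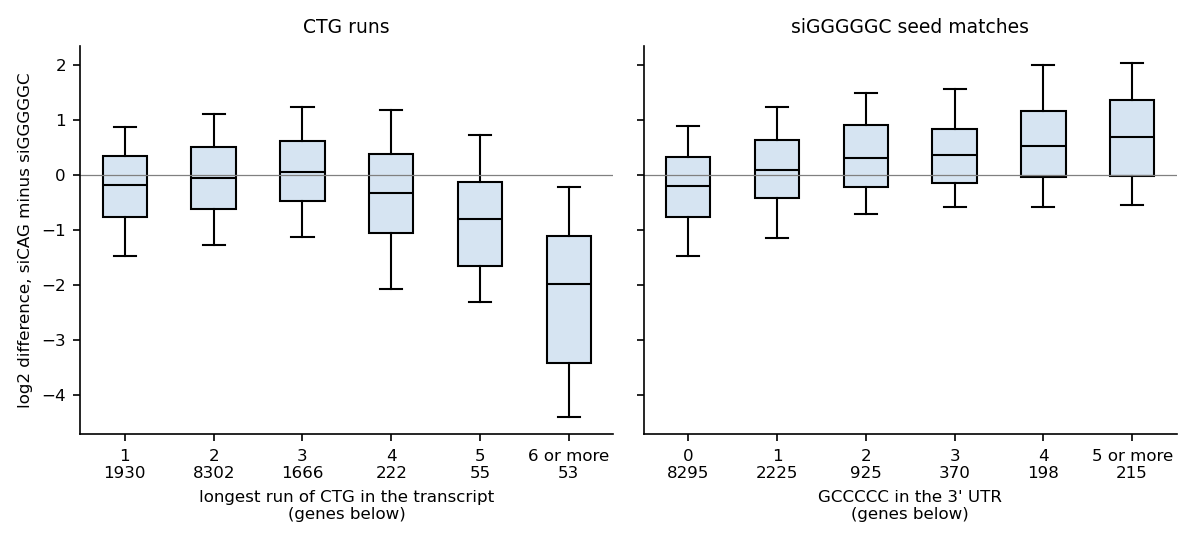
Log2 difference of siCAG minus siGGGGGC (vertical axis) for genes grouped by the longest run of CTG (left) and by the number of GCCCCC in the 3′ UTR (right), for matched genes with a 3′ UTR, their number under each box. Boxes show the median and quartiles and whiskers the 10th and 90th percentiles. The median falls from 4 CTG on and reaches -1.98 at 6 or more, and it rises with the number of GCCCCC to 0.69 at 5 or more.

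Among the higher genes, the 3′ UTR matches of the siGGGGGC seed were frequent. GCCCCC was searched on the transcript strand and occurred in the 3′ UTR of 32.1% of all matched genes. It occurred in 55 of the 78 matched genes that were higher after siCAG (70.5%) and in 39 of the 237 that were lower (16.5%). The median log2 difference was -0.20 over the 8295 genes without a GCCCCC, 0.10 with 1, 0.32 with 2, 0.37 with 3, 0.54 with 4 and 0.69 over the 215 genes with at least 5. At 24 h it was -0.23 without a GCCCCC and 0.82 with at least 5, and at 48 h -0.10 and 0.63. In the last group the median level against mock and siNT1 was -0.38 and -0.63 after siGGGGGC at 24 and 48 h, and 0.33 and -0.07 after siCAG.

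Genes with GCCCCC also had GC-rich 3′ UTRs, with a median of 50.5% GC against 39.0% without. Within the highest tercile of GC content the medians were 0.43 with and 0.21 without a GCCCCC, within the middle tercile 0.05 and -0.09, and within the lowest tercile -0.42 and -0.51. At 48 h, where the siCAG library had no such composition difference, the medians in the highest tercile were 0.25 and -0.08. With offsets for 3′ UTR GC content, chosen after seeing the data, the gap between the medians of genes with and without GCCCCC was 0.12 on the log2 scale, against 0.42 without the offsets.

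The 10 genes that the study followed as siGGGGGC targets, all with GCCCCC in the 3′ UTR, had a median difference of 1.77 (1.58 at 24 h and 2.0 at 48 h). The study chose them on HeyA8 data of another series, in the same line, so their direction is not independent evidence. Of these, 3 were higher, 0 lower and 7 did not pass, beside 0.627% of all genes higher and 1.77% lower. In the 8-library fit 8 of the 10 were higher, beside 7.64% of all genes. Without the term for time 0 of the 10 were called. Their median log2 difference from siNT1 was -0.15 after siCAG and -1.66 after siGGGGGC. With GC offsets 0 of the 10 were called, with a median of 1.38. The median ranged from 1.34 to 2.27 with 1 library left out.

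TGM2, transglutaminase 2, which crosslinks proteins (chr20:38128461-38165298), had 84554 and 85926 reads after siCAG and 19918 and 4625 after siGGGGGC. The siNT1 libraries, with 57727 and 60510, lay near siCAG. The difference was 3.14 ± 0.53 (adjusted p = 0.0316, edgeR's quasi-likelihood test). RHOC, a small GTPase of cell motility, had 15295 and 14118 against 3177 and 1941, and 7686 and 8261 after siNT1 (2.55 ± 0.41). HMGA1, a chromatin protein whose GCCCCC is printed above, had 68674 and 58570 against 22734 and 14762 (1.78 ± 0.32, adjusted p = 0.0341).

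The other members lay in the same direction without passing. EIF5A, a translation factor, had 38450 and 18622 reads after siCAG and 14008 and 4734 after siGGGGGC (1.70 ± 0.36, adjusted p = 0.0503). PES1, of ribosome assembly, differed by 1.77, POLR2E, an RNA polymerase subunit, by 1.85, APEX1, a DNA repair enzyme, by 1.78 and PPP1R14B, a phosphatase inhibitor, by 1.42. CENPB, which binds centromeric DNA, differed by 0.86. POLR2K was the only member whose siRNA values overlapped, with 905 and 2783 against 1112 and 682 (0.85 ± 0.62).

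Of the 5 genes without GCCCCC that the study used as pull-down controls, RFC3 was lower, as given above with the S phase list. Of all genes tested, 1.77% were lower. VAMP3, PPIL1, TPP2 and UMPS differed by -0.40, -0.92, -0.77 and -0.85 and did not pass, although PPIL1 passed in the 8-library fit (adjusted p = 0.0395, edgeR). The median of the 5 ranged from -1.01 to -0.77 with 1 library left out. Among 6 reference genes 0 passed, with a median of 0.02. GAPDH differed by 0.18 ± 0.26 and ACTB by 0.14 ± 0.29, while HPRT1 differed by -1.80 ± 0.41 (adjusted p = 0.063) and TBP by -1.23 ± 0.44. Both HPRT1 and TBP were lower in the 8-library fit, with adjusted p-values of 0.00591 and 0.0192 by edgeR.

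The genes with the largest rise and a mean of at least 1000 reads fell on both sides of siNT1. TXNIP, an inhibitor of thioredoxin and of glucose uptake (chr1:145992442-145996631), led with 4628 and 7102 reads after siCAG and 323 and 191 after siGGGGGC (4.51 ± 0.55, adjusted p = 0.0156). The siNT1 libraries had 576 and 1323, between both siRNAs. PGPEP1, a peptidase, had 1317 and 2888 against 235 and 265, with 184 and 297 after siNT1, so here siGGGGGC matched the control level. TP53INP2, an autophagy factor, rose by 3.16, AKR1C1, an aldo-keto reductase, by 2.74 and CD163L1, a scavenger receptor, by 2.96.

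For EHD2, AKT1S1, PAK4 and LIMK1 the siCAG level lay nearer to siNT1 than the siGGGGGC level did, although 0 of their differences from siNT1 passed for either siRNA. EHD2, a protein of the caveolar neck with 7 GCCCCC, had 5374 and 4584 reads after siCAG, 583 and 433 after siGGGGGC and 4346 and 4835 after siNT1. AKT1S1, an mTORC1 inhibitor, had 4552 and 3438 against 619 and 408, and 3218 and 2672 after siNT1. PAK4 and LIMK1, kinases of actin remodelling, had differences of 2.94 ± 0.49 and 2.80 ± 0.53, and from siNT1 differed by 0.25 and 0.48 after siCAG and by -2.76 and -2.24 after siGGGGGC. PLD3 and FAM214B rose by 2.78 and 2.74, with siNT1 between both siRNAs, from which they differed by 1.33 and 1.32 after siCAG, which passed, and by -1.47 and -1.43 after siGGGGGC, which did not.

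Stress and signalling lists held few called genes. In the integrated stress and unfolded protein response list, 1 of 30 genes was higher and 0 lower, beside 0.627% and 1.77% of all genes. It was DDIT3, the transcription factor CHOP, with 744 and 745 reads against 144 and 161 (2.28 ± 0.47, adjusted p = 0.0471, edgeR). ATF4, its activator, had 33682 and 18457 against 7650 and 8443 and did not pass (1.62 ± 0.39, adjusted p = 0.0706). The median of the list was -0.37, 0.64 at 24 h and -0.54 at 48 h. The call of DDIT3 was lost with RLE size factors in place of TMM, with a stricter filter (at least 100 reads in 2 libraries), without the term for time and when either siGGGGGC library was left out. In the 8-library fit 6 genes of the list were higher and 3 lower, beside 7.64% and 7.73% of all genes. The median of the list ranged from -0.55 to 0.47 with 1 library left out.

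Among 14 heat shock proteins 1 was lower, beside 1.77% of all genes. In the 8-library fit 4 were lower, beside 7.73% of all genes. The median of the list ranged from -0.75 to -0.30 with 1 library left out. HSP90AA1, the inducible cytosolic HSP90 chaperone, had 49110 and 47443 reads after siCAG and 206341 and 234891 after siGGGGGC, with 167262 and 180207 after siNT1. The siCAG libraries alone stood below the controls (-2.20 ± 0.26, adjusted p = 0.0144). HSPD1, the mitochondrial chaperonin, differed by -1.14 ± 0.32 (adjusted p = 0.104).

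Of 21 tested NF-kB targets and cytokines, 3 were higher, beside 0.627% of all genes, and 0 lower, with a median of 0.64. They were ICAM1, an adhesion receptor, with 523 and 2665 reads against 73.7 and 525, CSF3, the granulocyte growth factor G-CSF, with 230 and 437 against 39.8 and 53.6, and IL6, with 91.3 and 229 against 15.5 and 25.8. ICAM1 had 60.9 and 66.3 reads after siNT1, so the siGGGGGC library at 48 h also stood above the controls. SOD2, the most abundant gene of the list, differed by -0.46 at 24 h and 2.52 at 48 h. All 3 calls were lost without the term for time and without siGGGGGC at 48 h, and with the stricter filter 1 gene of the list was higher. The median of the list ranged from 0.43 to 0.95 with 1 library left out. Of 27 tested interferon response genes 0 were called, with a median of 0.48. In the 8-library fit 7 were higher, beside 7.64% of all genes. The median of these genes ranged from 0.40 to 0.90 with 1 library left out.

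Few genes passed in 3 further lists. ITGA3, the integrin alpha 3 subunit, had 47616 and 59106 reads against 16024 and 10367 (2.03 ± 0.37) and was the 1 called gene of 13 integrin subunits. Its call was lost without the term for time, with GC offsets and without siGGGGGC at 48 h. In TGF-beta and activin signalling, with 23 genes tested, the ligand BMP2 was higher (2.59 ± 0.48) and the ligand TGFB1 lower (-3.04 ± 0.52), the latter with 338 and 154 reads against 1720 and 2026. Both lost their call without the term for time and without siGGGGGC at 48 h, and BMP2 also without siGGGGGC at 24 h. Of all genes tested, 0.627% were higher and 1.77% lower. In the lysosome list of 25 genes SQSTM1, the autophagy receptor p62, was higher (62034 and 90675 against 20077 and 35201, 1.48 ± 0.30) and CTSA lower. SQSTM1 lost its call with RLE size factors, the stricter filter and GC offsets, without the term for time and when either siGGGGGC library was left out, while CTSA kept it in all of these.

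In the remaining lists 0 genes were called in either direction by edgeR's quasi-likelihood test on the 4 libraries. Their medians were -0.67 for the 12 genes of RNA interference, -0.22 for 32 of ribosome biogenesis, -0.31 for 31 of the proteasome and -0.09 for 12 of RNA polymerase II. They were -0.07 for 35 of apoptosis, -0.10 for 10 of fatty acid synthesis, -0.36 for 24 of glycolysis and hypoxia and -0.03 for 18 YAP/TEAD targets. For 26 collagen, laminin and matrix genes the median was 0.54 and for 22 MAPK feedback and immediate early genes -0.03. These counts rested on the fit, since in the 8-library fit 3 proteasome genes and 3 of RNA interference were lower and 4 matrix genes higher. Of all genes, 7.73% were lower and 7.64% higher in that fit. With 1 library left out, the median ranged from -0.54 to 0.064 for the proteasome and from -0.86 to -0.38 for RNA interference. For matrix genes it ranged from 0.30 to 0.62. AGO2, the slicing Argonaute, had 1346 and 785 reads against 2444 and 3058 (-1.42 ± 0.46, adjusted p = 0.134). The 13 genes of mitochondrial DNA have no row in the table.

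**Figure D4:**
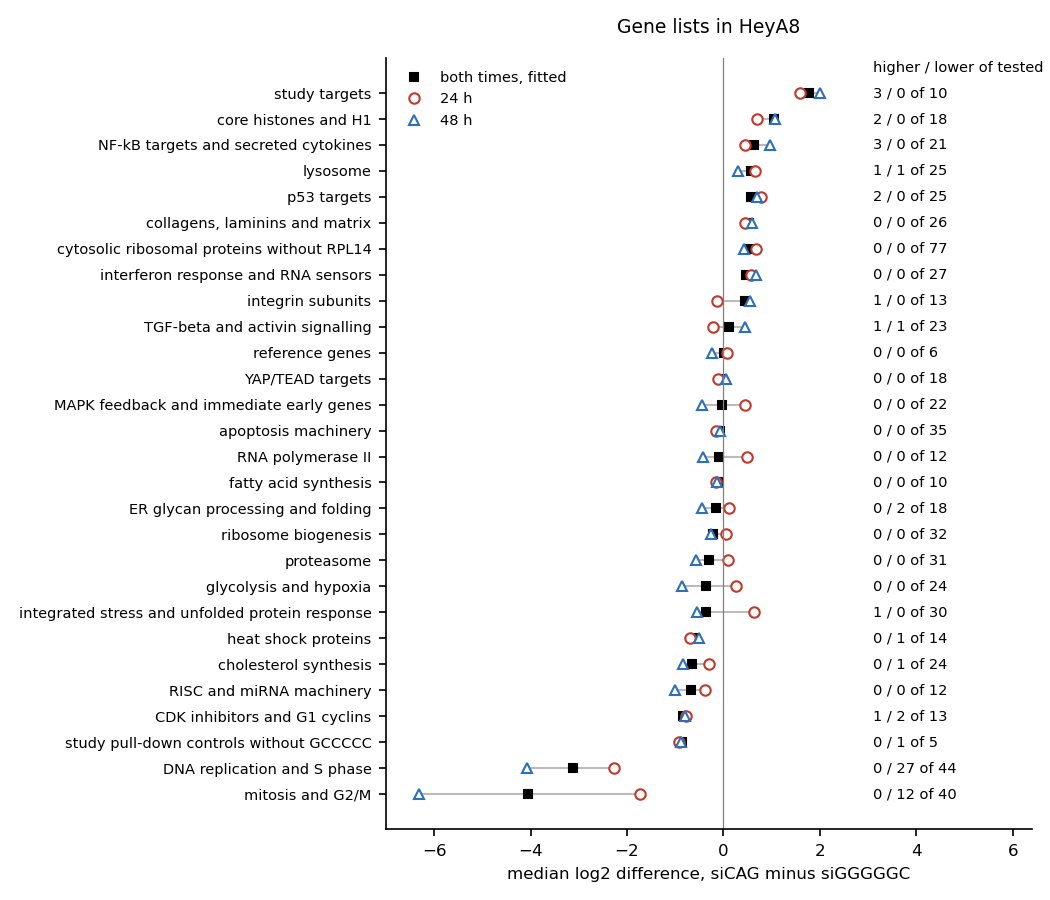
Median log2 difference of siCAG minus siGGGGGC over the tested genes of each list, at 24 h (red circles), at 48 h (blue triangles) and fitted over both (black squares), with the number of genes called higher and lower of those tested. Among the lists other than cell type markers, S phase and mitosis lie farthest left, at -3.12 and -4.07, and the study's targets farthest right, at 1.77.

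The same siRNAs were compared in PC3 cells by the same fit of 4 libraries, where 737 of 14732 genes were higher (5%) and 572 lower (3.88%) after siCAG. The genes with CTG runs were low there too. Of 49 PC3 genes with runs of 6 or more CTG, 35 were lower and 0 higher, with a median of -1.98. RPL14 differed by -5.07 ± 0.30 in PC3 and PRKCSH by -3.49 ± 0.29. All 10 of the study's targets were higher in PC3, with a median of 1.91.

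Among cell division genes in PC3, 6 of 44 S phase genes and 5 of 40 mitosis genes were lower, beside 3.88% of all genes, with medians of -0.38 and -0.37. The transcription factor gene FOXM1, of the mitosis list, was higher there (1.11 ± 0.29) and was named after its value was seen. CDC6 was among the lower ones, at -1.02 ± 0.29, and CDC25A, outside both lists, was lower as well, at -1.67 ± 0.29. A term for how far the siRNA difference changed with the cell line, fitted to the 8 libraries of both siRNAs, called 13 of 15554 genes (0.0836%) by edgeR's quasi-likelihood test. Of the 84 S phase and mitosis genes, 4 were called and 63 had an unadjusted p below 0.05, and their median line difference was -3.17 on the log2 scale, against -0.01 over all genes. Of the 53 genes with at least 6 CTG, 0 were called and 7 had an unadjusted p below 0.05, with a median of -0.32. Over all 15554 genes, 1588 had an unadjusted p below 0.05 in this test.

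The genes with the 4 smallest p-values of that test were FAM111B, ZNF367, CENPE and CCNE2. ZNF367, a zinc finger gene, had 114 and 84.4 reads after siCAG and 5728 and 4452 after siGGGGGC in HeyA8, a difference of -5.70 ± 0.50, and differed by -0.78 ± 0.33 in PC3. The line difference was -4.92 ± 0.48 (adjusted p = 0.0228, edgeR). For CENPE it was -4.29 ± 0.47 (adjusted p = 0.0337), with 0.34 ± 0.34 in PC3, and for CCNE2 -6.53 ± 0.72, with -0.84 ± 0.37 in PC3. CDKN1A differed by 1.06 ± 0.35 in PC3 and did not pass there, and its line difference of 1.36 had an adjusted p of 0.366.

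**Figure D5:**
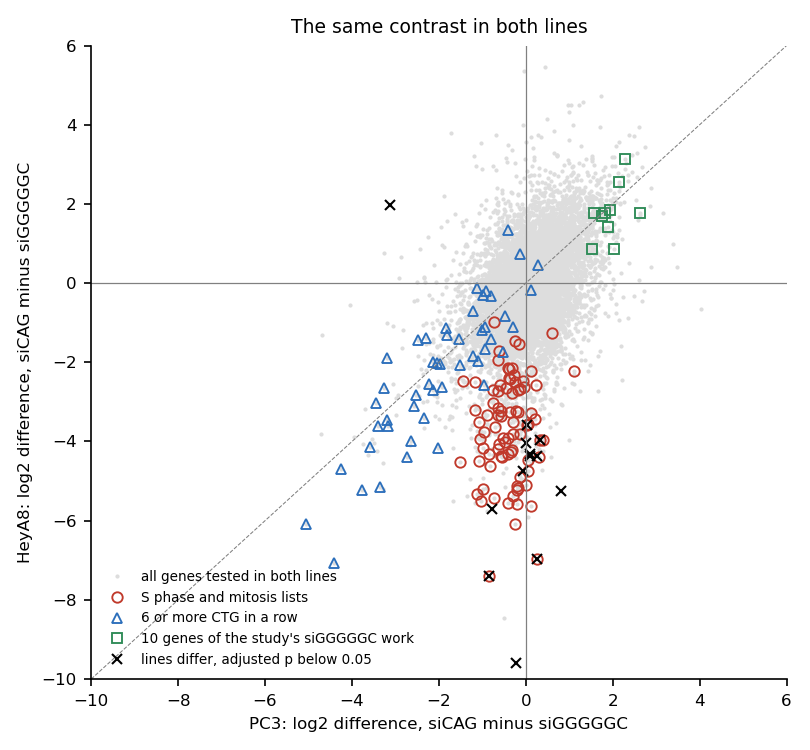
Log2 difference of siCAG minus siGGGGGC in HeyA8 (vertical axis) against that in PC3 cells (horizontal axis) for genes tested in both, with equal values on the dashed line. S phase and mitosis genes (red circles) spread down the HeyA8 axis near 0 in PC3, genes with at least 6 CTG (blue triangles) scatter around the dashed line, most of them below 0 in both lines, and black crosses mark the genes called in the test of the line difference.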

How the data were processed

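The deposited table holds whole-number counts of reads on genes, which the authors made by trimming, aligning to hg38 and counting exonic reads with HTSeq, without normalization; the labels name STAR as aligner, and strand use is not given in the sources used here. No column of per-sample values was left over. Libraries held 30360281 to 31255897 counted reads in the compared groups. The members and lists were chosen with earlier results of these data known.

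Differences were tested with edgeR 4.0.16 in R 4.3.3 (filterByExpr, TMM within the libraries of each fit, siRNA and time as terms, quasi-likelihood test, Benjamini-Hochberg adjustment), and the SE is the log2 difference over the root of the F statistic. Printed normalised reads were scaled by TMM over the 8 libraries of a line. Time is the block that pairs the libraries, since replicate numbers are time points. Values at 24 or 48 h alone rest on 1 library a side and have no test. With 2 libraries a side, an exact permutation test cannot go below a two-sided p of 0.333. DESeq2 1.42.0 and limma 3.58.1 served as alternatives. Levels by GC content were log2 of the count plus 0.5. Sequence features came from GENCODE v44, matching 90.2% of tested genes (621 through older symbols). The steps were tested on simulated data, with 50 genes changed at each fold. The HeyA8 fit recovered 2% of 2-fold, 46% of 4-fold and 94% of 8-fold changes, with 12 false calls. For the line difference these shares were 2%, 14% and 80%, with 11 false calls. A gene that did not pass may therefore still differ.

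Named were the 12 most raised and 12 most lowered called genes with a mean of at least 1000 normalised reads and 1 direction at both times, the study's targets, controls and reference genes, up to 4 members with the smallest p and the most abundant member of each list, the 6 most abundant genes with at least 6 CTG, and the 4 with the smallest p for the line difference. Others were chosen after their values were seen. Results for some genes, and 1 list that turned on one of them, are not reported here.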

Additional observations from a re-analysis of the deposited data

Results flagged for a closer look

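The test of whether the siCAG against siGGGGGC difference changed with the cell line called 13 genes, and these are given here for that reason. Values are the log2 difference in HeyA8 minus that in PC3, with adjusted p-values by edgeR's quasi-likelihood test.

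Of the 13, 4 belong to the S phase or mitosis lists, namely CCNE2, E2F2, RFC3 and CENPE. The line difference was -6.53 for the cyclin CCNE2, -7.17 for the transcription factor E2F2, -3.61 for the clamp loader subunit RFC3 and -4.43 for DSCC1, of an alternative clamp loader. It was -6.03 for the repair helicase BRIP1. BRIP1 differed by -5.24 in HeyA8 and by 0.81 in PC3, and RFC3 by -3.59 and 0.02.

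The line difference was -4.29 for the kinetochore motor CENPE, -4.47 for the kinetochore protein CENPK, -4.66 for SGOL2, which protects centromeric cohesion, and -4.04 for the kinesin KIF20B. In PC3 these 4 genes had differences between -0.07 (SGOL2) and 0.34 (CENPE).

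FAM111B had the smallest adjusted p (0.0195) and a line difference of -9.37. It was -4.92 for ZNF367 and -4.61 for WDR76. ANGPTL4, a secreted inhibitor of lipoprotein lipase, was the only one of the 13 with a positive line difference, 5.08 (adjusted p = 0.0449). In HeyA8 it had 2302 and 2669 normalised reads after siCAG and 613 and 645 after siGGGGGC, while in PC3 it differed by -3.12.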

How the results depend on the processing

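Each siRNA has 2 libraries, and the fit 1 residual degree of freedom. The PC3 fit of the same size called 1309 genes, with a coefficient of variation of 24.1% against 37.8% in HeyA8. The GC offsets, the fits without a block for PC3 and for the line difference, and leaving out libraries in the latter were chosen after seeing the data. The cause of the changes below was not tested.

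Of the 325 calls, 323 were also called in the 8-library fit, 271 with RLE size factors, 325 with upper-quartile size factors, 323 with DESeq2 and 325 with limma-voom. With the stricter filter 186 of 304 still tested were called, and with GC offsets 151 of 315. No call changed direction in any of the alternatives. Higher and lower genes numbered 1060 and 1072 in the 8-library fit, 840 and 832 with upper-quartile size factors, 499 and 827 with DESeq2, 194 and 390 with limma-voom, 44 and 142 with the stricter filter and 48 and 129 with GC offsets. Upper-quartile scaling moved the median of all genes from -0.04 to 0.09, and the share of lower genes among those called from 73.8% to 49.8%.

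The time points pair the libraries. Without the replicate block 11 genes were higher and 57 lower, and 68 of the 325 calls remained. The line difference then called 1 gene higher and 3 lower, and PC3 64 higher and 102 lower. The PC3 fit of 8 libraries gave 1106 and 1295.

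Leaving out 1 library in turn gave 4 to 2373 higher and 65 to 3417 lower genes. The lone library left is assumed to vary like the other groups. Without siGGGGGC at 48 h, 4 and 65 were called and 69 of the 325 calls remained. Without siGGGGGC at 24 h these were 150 and 204, with 194 remaining. Without siCAG at 24 h they were 2373 and 2565, and without siCAG at 48 h 2325 and 3417. The line difference called 178 genes higher and 269 lower over all 16 libraries, 80 and 246 with DESeq2, and 98 to 1390 and 132 to 1933 with 1 library left out. POLR2L, an RNA polymerase subunit gene, reversed from -0.11 to 0.60 without siCAG at 48 h.

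Several list medians moved by more than the SD of their 24 and 48 h medians, which was small in some lists. With upper-quartile size factors they were -0.72 for the pull-down controls, 0.71 for p53 targets, -0.46 for heat shock proteins, 0.62 for interferon genes, 0.065 for apoptosis, 0.033 for fatty acid synthesis, 0.11 for YAP/TEAD targets, 0.67 for matrix genes, -0.71 for CDK inhibitors and G1 cyclins and -1.84 for genes with 6 or more CTG. With GC offsets they were 1.38 for the study's targets, -0.76 for the pull-down controls, 0.47 for p53 targets, 0.57 for histones, -0.12 for heat shock proteins, 0.70 for interferon genes, -0.27 for fatty acid synthesis, 0.12 for YAP/TEAD targets, 0.80 for matrix genes, 0.26 for the lysosome and -0.88 for CDK inhibitors and G1 cyclins, and the shift between genes with and without GCCCCC was 0.12 in place of 0.42. The stricter filter gave 1.72 for histones, 0.21 for interferon genes, -0.073 for fatty acid synthesis, -0.062 for integrins and -0.99 for CDK inhibitors and G1 cyclins. The 8-library fit gave 0.63 for interferon genes, -0.088 for fatty acid synthesis and -0.78 for CDK inhibitors and G1 cyclins. Without the replicate block, interferon genes were at 0.61, apoptosis at 0.025 and CDK inhibitors and G1 cyclins at -0.80. Fatty acid synthesis was at -0.11 with RLE size factors, with DESeq2 and with no filter on low counts.

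With 1 library left out, the median ranged from -4.12 to -2.19 for the S phase list and from -6.39 to -1.76 for the mitosis list, and the gap between genes with and without GCCCCC from 0.26 to 0.60. The medians ranged from -0.86 to -0.38 for RNA interference, from 1.34 to 2.27 for the study's targets, from -1.01 to -0.77 for the pull-down controls, from -0.23 to 0.086 for reference genes, from 0.50 to 0.81 for p53 targets and from 0.44 to 1.46 for histones. They ranged from 0.39 to 0.71 for ribosomal proteins, from -0.45 to 0.27 for ribosome biogenesis, from -0.55 to 0.47 for the stress response, from -0.75 to -0.30 for heat shock proteins and from 0.40 to 0.90 for interferon genes. They ranged from -0.23 to 0.012 for apoptosis, from -0.37 to 0.11 for fatty acid synthesis, from -0.19 to 0.13 for YAP/TEAD targets, from -0.40 to 0.68 for TGF-beta, from 0.30 to 0.62 for matrix genes, from -1.04 to -0.70 for CDK inhibitors and G1 cyclins and from -2.25 to -1.86 for genes with 6 or more CTG. The medians also changed sign for RNA polymerase II (-0.42 to 0.36), the proteasome (-0.54 to 0.064), glycolysis and hypoxia (-0.69 to 0.16), endoplasmic reticulum glycan processing (-0.40 to 0.16), MAPK feedback (-0.42 to 0.40) and integrins (-0.020 to 0.64).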
